A study of Mus musculus with 10 samples.

Results

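The 3T3-L1 clones analysed here were set apart by 1 transcript, Mest, which was bright in 4 of the 10 clonal lines and dim in the other 6. The lines were chosen by the log2 signal of the brightest Mest probe set, which was also the 1 probe set for Mest that carried a single gene name. Lines above a log2 signal of 8 formed the Mest-bright group, which held clones 3F4, 4D2, 4E3 and 5C4. Lines below it formed the Mest-dim group, which held clones 1E7, 2D7, 2F1, 4D11, 4H4 and 5D4. The parent line, 3T3-L1, consists of mouse embryonic fibroblasts that become fat-storing adipocytes when given insulin, dexamethasone and IBMX. Every line was grown from a single colony, kept below confluence in DMEM with 10% serum, left untreated and sampled while proliferating, before any cocktail was added. The labels class 5 lines as High and 5 as Low in adipogenic potential. The classes rest on triglyceride stored in a separate test with the cocktail, a basis that the labels do not state. All 4 Mest-bright lines were High, 5 of the 6 Mest-dim lines were Low, and the sixth, 5D4, was High. Each line was 1 clone measured on 1 array, so the spread between lines holds clonal and technical variation together, and no line is a genetic model of Mest gain or loss.

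Mest, also called Peg1, is an imprinted gene transcribed from the paternal chromosome, and a CpG-rich region at its promoter carries methylation on the maternal copy. It encodes a membrane protein of the alpha/beta-hydrolase family, and its level in mouse fat tissue is known to go along with fat mass expansion. The gene also carries miR-335 in an intron. Vstm2a is a secreted immunoglobulin-domain protein that promotes commitment of preadipocytes, and Dpt (dermatopontin) is an extracellular matrix protein that binds decorin and modifies collagen fibril assembly.

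The stretches just before the start sites of Mest, Vstm2a and Dpt are shown because Mest made the groups and the other two had the largest differences among the called genes. Each holds the 250 bases before a RefSeq start on the plus strand of GRCm38.p6, with every CG dinucleotide in capitals. RefSeq lists 3 starts for Mest, and the third lies beside the second, so 1 stretch stands for both.
Mest start 1, chr6:30733256-30733505: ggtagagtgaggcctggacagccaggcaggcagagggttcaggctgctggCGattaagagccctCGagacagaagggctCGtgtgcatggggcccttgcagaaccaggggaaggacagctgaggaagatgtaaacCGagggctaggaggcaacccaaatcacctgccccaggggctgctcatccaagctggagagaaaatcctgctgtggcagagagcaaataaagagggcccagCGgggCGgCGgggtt
Mest start 2, chr6:30737800-30738049: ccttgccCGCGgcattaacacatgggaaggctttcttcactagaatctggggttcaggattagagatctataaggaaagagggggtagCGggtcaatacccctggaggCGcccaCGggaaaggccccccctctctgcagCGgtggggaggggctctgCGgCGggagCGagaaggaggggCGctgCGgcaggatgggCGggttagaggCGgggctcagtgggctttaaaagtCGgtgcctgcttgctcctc
Vstm2a, chr11:16257492-16257741: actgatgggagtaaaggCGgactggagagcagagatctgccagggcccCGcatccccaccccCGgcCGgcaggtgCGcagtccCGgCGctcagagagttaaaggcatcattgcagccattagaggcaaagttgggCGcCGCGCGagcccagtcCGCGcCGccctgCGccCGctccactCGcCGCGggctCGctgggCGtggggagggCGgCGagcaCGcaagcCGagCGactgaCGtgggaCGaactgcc
Dpt, chr1:164796413-164796662: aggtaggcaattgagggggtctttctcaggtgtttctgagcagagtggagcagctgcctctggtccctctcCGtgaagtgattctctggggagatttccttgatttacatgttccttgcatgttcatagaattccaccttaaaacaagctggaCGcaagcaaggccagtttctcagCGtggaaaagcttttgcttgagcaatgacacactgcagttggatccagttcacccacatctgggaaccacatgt
The stretch before Vstm2a held 28 CG dinucleotides, a number that 7.6% of 32851 mouse promoter stretches of this length reach. Mest start 2 held 14 (reached by 29.4%), Mest start 1 held 7 (46.3%) and Dpt held 3 (71.0%), against a median of 6 over all promoters. The motif GGGCGG, counted on both strands, occurred 2 times before Vstm2a, 1 time before each Mest start and 0 times before Dpt, and 32.7% of promoters hold it. TATAAA, counted on both strands, occurred in none of the 4 stretches, and 12.4% of promoters hold it. Methylation was not measured in these lines. The 2 mature products of the microRNA within Mest are shown with seed bases 2 to 8 in capitals.
mmu-miR-335-5p, chr6:30741314-30741336: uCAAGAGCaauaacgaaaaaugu
mmu-miR-335-3p, chr6:30741354-30741375: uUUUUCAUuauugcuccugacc

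Mest (Entrez gene 17294, probe set 10537062, chromosome 6) had a log2 signal of 9.39 in 3F4, 9.77 in 4D2, 10.93 in 4E3 and 9.76 in 5C4. In the Mest-dim lines it was 6.56 in 1E7, 6.60 in 2D7, 6.70 in 2F1, 6.72 in 4D11, 6.90 in 4H4 and 6.62 in 5D4. The line just above the limit stood at 9.39 and the line just below it at 6.90, and limits of 7.5 or 8.5 chose the same 4 lines. The group means were 9.96 ± 0.67 (SD, n = 4) and 6.68 ± 0.12 (SD, n = 6), a description with no test because this signal made the groups. In the Mest-dim lines Mest was brighter than 27.2 to 34.3% of all probe sets on the same array, and in the Mest-bright lines than 68.4 to 84.0%. An array signal in that lower range does not show whether the gene was silent, so the groups are called bright and dim. The probe set for the miR-335 precursor lay between 5.75 and 5.95 in the Mest-bright lines and between 5.66 and 5.91 in the Mest-dim lines. It exceeded the 25th percentile of its array in 0 of the 10 lines, so no level could be compared.

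The 10 arrays had medians of 7.74 to 7.84, which RMA processing brings close together. Their pairwise correlations across probe sets were 0.982 to 0.995, and no pair was identical. Preadipocyte and fibroblast markers were bright in every line, for example Vim at 14.05 to 14.15, Dlk1 at 13.76 to 13.94 and Col1a1 at 12.38 to 12.79. None of the 8 such markers passed the test between the groups. Lists of macrophage, endothelial, epithelial, skeletal muscle, neural and skeletal tissue genes had mean signals of 7.24 to 8.04 in all lines and 0 members past the threshold.

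Mest-bright lines differed from Mest-dim lines in 15 of 16410 genes with Mest left out, or 0.0914% of the genes tested (limma, Benjamini-Hochberg adjusted p under 0.05). Of these, 10 (0.0609%) were higher and 5 (0.0305%) were lower in the Mest-bright lines. Vstm2a and Dpt had the smallest p of the higher genes, which also held Fabp4, Cd93, Grpr, Pde2a, Pianp, Islr, Sfrp2 and Serpina3n. The adenylyl cyclase Adcy3 had the smallest p of the lower ones. Without adjustment 1682 genes (10.2%) had a p under 0.05, and in 375 genes (2.29%) the groups did not overlap, 188 with the Mest-bright lines above and 187 with them below. All 15 called genes were among those without overlap. With arrays centred on their medians the split was 10 higher and 12 lower, and the same 15 genes were among them. The count was 26 without 2D7, 7 without 3F4, 28 without 4E3 and 8 without 5C4. By label, with 5D4 on the High side, 1 gene passed (0.00609%), Angptl4, and 0 of the 15 did. The groups were made from a transcript of the same arrays and 9 of the 10 lines fall as the labels class them, so these p-values describe lines grouped by Mest and cannot be told apart from the classes in those 9 lines.

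Vstm2a (probe set 10374356, chromosome 11) had the widest difference. Its log2 signal was 10.94 in 3F4, 10.60 in 4D2, 10.37 in 4E3 and 10.61 in 5C4, against 7.31 in 1E7, 8.03 in 2D7, 7.38 in 2F1, 7.21 in 4D11, 7.96 in 4H4 and 8.65 in 5D4. The Mest-bright lines lay together and well above the rest, and 5D4 was the highest of the Mest-dim lines. Vstm2a was 7.33-fold higher in the Mest-bright lines, by 2.87 on the log2 scale (SE 0.25, limma adjusted p = 0.00101), and the 95% confidence interval ran from 2.33 to 3.42. By label the difference was 2.66 with an adjusted p of 0.0762.

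Dpt (probe set 10351293, chromosome 1) stood at 9.70 in 3F4, 9.94 in 4D2, 10.36 in 4E3 and 10.70 in 5C4. In the Mest-dim lines it was 7.81 in 1E7, 7.81 in 2D7, 8.56 in 2F1, 8.28 in 4D11, 8.18 in 4H4 and 7.89 in 5D4. The groups were separate, and 5D4 lay inside the range of the Low lines. Dpt was 4.25-fold higher in the Mest-bright lines, a difference of 2.09 (SE 0.20, 95% confidence interval 1.66 to 2.52, limma adjusted p = 0.00101), and by label 1.59 with an adjusted p of 0.312. Its binding partner Dcn (decorin) ran from 11.74 to 12.62 in the Mest-bright lines and from 11.23 to 12.69 in the Mest-dim lines, so the groups overlapped.

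Islr, Sfrp2 and Serpina3n, which also encode secreted proteins, were the 3 higher genes with the largest p. Islr, a leucine-rich repeat protein of stromal cells, was at 11.86 in 3F4, 10.94 in 4D2, 10.58 in 4E3 and 11.50 in 5C4, and the Mest-dim lines had a lowest value of 8.66, a median of 9.40 and a highest value of 9.82. Its lowest value belonged to 5D4, and Islr was 3.79-fold higher in the Mest-bright lines, by 1.92 on the log2 scale (SE 0.26, limma adjusted p = 0.0105). Sfrp2, a secreted modulator of Wnt signalling, was at 12.21, 12.17, 11.78 and 12.24 in the same order of Mest-bright lines. The Mest-dim lines ran from 10.45 in 5D4 to 11.48 in 4H4 with a median of 10.83, and the difference was 1.23 (SE 0.18, limma adjusted p = 0.0186), or 2.35-fold. Serpina3n, a secreted serine protease inhibitor, was the most scattered of the 3. It reached 8.90 in 3F4, 7.94 in 4D2, 8.83 in 4E3 and 9.73 in 5C4 against 6.73 to 7.41 in the Mest-dim lines, a difference of 1.74 (SE 0.27, limma adjusted p = 0.0335).

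Fabp4, the fatty acid carrier of adipocytes, was brighter in every Mest-bright line before any cocktail had been given. It was at 10.06 in 3F4, 10.06 in 4D2, 10.45 in 4E3 and 9.89 in 5C4, and the Mest-dim lines ran from 8.13 in 4D11 to 9.19 in 4H4 with a median of 8.66. Fabp4 was thus 2.85-fold higher, by 1.51 on the log2 scale (SE 0.19, limma adjusted p = 0.0105), and the 95% confidence interval ran from 1.10 to 1.92. In 5D4, a High line, Fabp4 was at 8.63. Other lipid genes placed 5D4 differently. Plin4, a lipid droplet protein, was at 9.46 in 5D4, 9.37 to 9.89 in the Mest-bright lines and 8.40 to 9.18 in the Low lines, a position of 0.77 on the scale explained below. Lpl was at 11.04 in 5D4, below the 11.15 to 11.64 of the Low lines. Both were singled out after values were seen. Pparg, the nuclear receptor that drives adipocyte differentiation, was at 11.97 to 12.22 in the Mest-bright lines and 11.13 to 11.75 in the Mest-dim lines, with 5D4 the highest of these. That difference of 0.63 had a limma adjusted p of 0.0782 and did not pass. Cd36, the fatty acid translocase, was too dim to be tested and ran from 5.78 to 7.65 in the Mest-bright lines and from 5.11 to 5.39 in the Mest-dim lines, without overlap.

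Among surface receptors, Grpr, the receptor for gastrin-releasing peptide, was at 9.71 in 3F4, 8.63 in 4D2, 9.43 in 4E3 and 9.76 in 5C4 against 7.86 to 8.15 in the Mest-dim lines. 4D2 was nearest to the Mest-dim lines, and the difference was 1.39 (SE 0.18, limma adjusted p = 0.0105). Cd93, a C-type lectin-like transmembrane receptor, was at 9.43, 9.59, 9.33 and 9.13 in the same order against 8.37 to 8.78, a difference of 0.84 (limma adjusted p = 0.0105). Pianp, a membrane protein that binds the receptor PILR alpha, was at 8.12, 8.505, 8.23 and 8.40 against 7.54 to 7.77, a difference of 0.61 (limma adjusted p = 0.0105). Neither Cd93 nor Pianp had overlapping groups.

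Adcy3, an adenylyl cyclase that makes cyclic AMP, was lower in the Mest-bright lines. It was at 7.92 in 3F4, 7.81 in 4D2, 8.20 in 4E3 and 7.96 in 5C4, against 8.75 in 1E7, 8.82 in 2D7, 8.89 in 2F1, 8.74 in 4D11, 8.81 in 4H4 and 8.92 in 5D4. The Mest-dim lines were tightly grouped with an SD of 0.07, and the difference was -0.85 (SE 0.08, 95% confidence interval -1.02 to -0.68), 1.80-fold lower, with a limma adjusted p of 0.00101. Pde2a, a phosphodiesterase of cyclic AMP and cyclic GMP, was at 8.39, 8.18, 8.41 and 8.59 in the Mest-bright lines against 7.52 to 7.92 in the Mest-dim lines. Its difference was 0.68 (SE 0.09, limma adjusted p = 0.0105), and neither gene had overlapping groups. Pde3b, another phosphodiesterase of cyclic AMP, had overlapping groups and a difference of the other sign, -1.81, with a limma adjusted p of 0.371.

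The other lower genes were Cachd1, Hspa4l, Tanc2 and Prkd2. Cachd1, a membrane protein related to calcium channel subunits, was at 7.65 in 3F4, 7.32 in 4D2, 7.24 in 4E3 and 7.52 in 5C4 against 8.18 to 8.64 in the Mest-dim lines, 2.01-fold lower (difference -1.01, SE 0.11, limma adjusted p = 0.00487). Hspa4l, a chaperone of the Hsp110 family, was at 9.61, 9.73, 9.71 and 9.56 against 10.22 to 10.65, a difference of -0.78 (limma adjusted p = 0.00702). Tanc2, a scaffold protein, was at 9.11, 9.20, 9.49 and 9.23 against 9.74 to 10.33, a difference of -0.84 (limma adjusted p = 0.0105). Prkd2, protein kinase D2, had the smallest difference of the 15, -0.38 (SE 0.06, limma adjusted p = 0.0394), with Mest-bright lines at 7.77 to 7.95 and Mest-dim lines at 8.14 to 8.28.

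**Figure D1:**
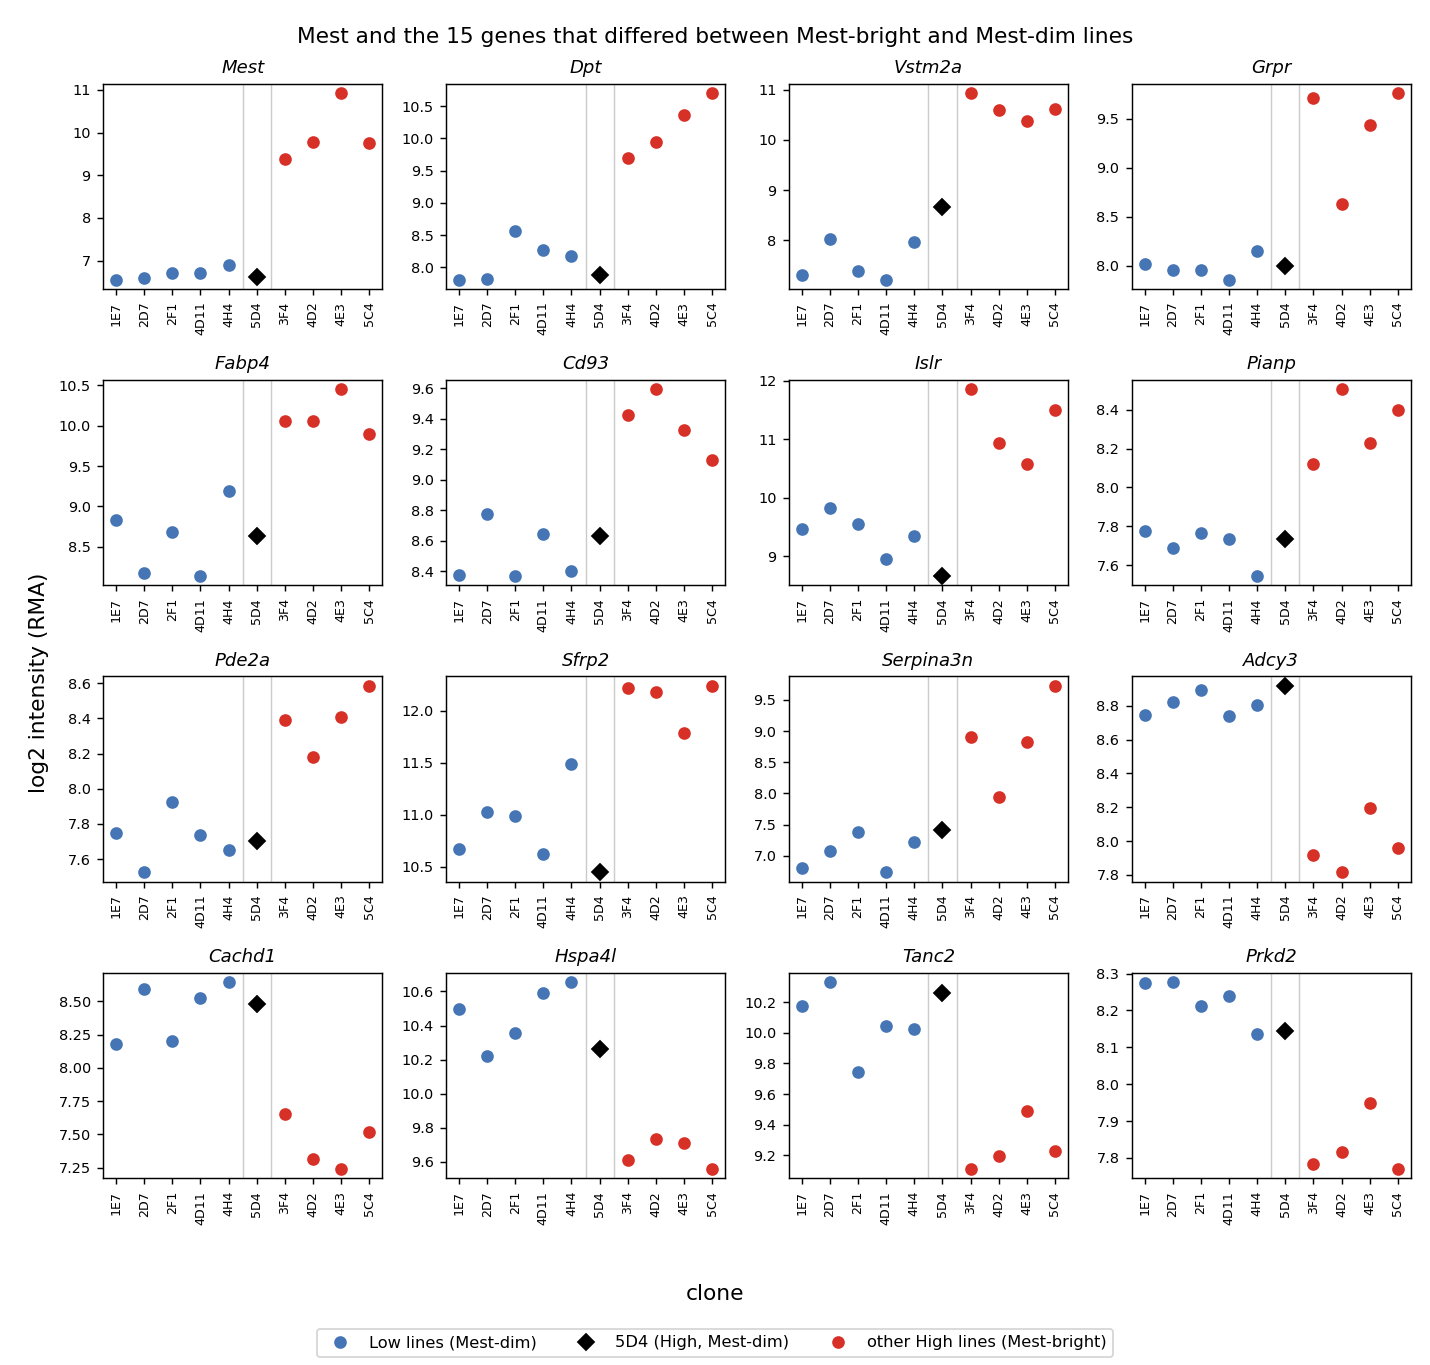
Log2 RMA intensity (vertical axes, which differ between panels and do not start at 0) of Mest and the 15 called genes in each clone (horizontal axes), with the 5 Low lines in blue, 5D4 as a black diamond and the 4 Mest-bright lines in red; each point is 1 array. In each of the 15 genes the red points lie apart from all others, and 5D4 lies with the blue points or on their far side except in Vstm2a, where it stands at 8.65 between 8.03 and 10.37, and Serpina3n, where it stands at 7.41 just above 7.38. The separation and the side of 5D4 follow in part from the choice of genes, made with 5D4 among the Mest-dim lines.

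For 6 of the 15 genes (Vstm2a, Dpt, Adcy3, Cachd1, Hspa4l and Fabp4) the limma adjusted p stayed under 0.05 whichever of the 10 lines was left out. Vstm2a then differed by 2.76 to 3.05, Dpt by 1.91 to 2.25 and Adcy3 by -0.92 to -0.80. Cd93 did not pass without 3F4 and Pianp did not pass without 5C4, with differences of 0.76 to 0.92 and 0.54 to 0.67 over the lines left out. Grpr (1.27 to 1.64), Islr (1.71 to 2.13) and Pde2a (0.61 to 0.74) did not pass without 3F4 or without 5C4, and Sfrp2 (1.15 to 1.35) and Tanc2 (-0.92 to -0.79) did not pass without 3F4, 4D2 or 5C4. Serpina3n passed in 4 of the 10 cases, not without 1E7, 4D11, 4H4, 3F4, 4E3 or 5C4 (1.45 to 2.05), and Prkd2 in 1, the case without 4E3 (-0.42 to -0.36). Clones of both groups share a leading 4 (4D2 and 4E3 bright, 4D11 and 4H4 dim) or a leading 5 (5C4 bright, 5D4 dim). The labels do not say what the leading digit stands for. With that digit as a block, 6 genes passed, and 4 of the 15 were among them: Dpt, Vstm2a, Cachd1 and Hspa4l, each with a limma adjusted p of 0.0396. In that fit 1E7, 2D7, 2F1 and 3F4 do not bear on the difference, since no line of the other group shares their digit.

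The genes next in order of p did not pass but had groups that did not overlap. On the higher side they were Olr1, a scavenger receptor for oxidised LDL, at 8.14 to 8.62 in the Mest-bright lines against 7.28 to 7.85, and P2rx3, an ATP-gated ion channel, at 9.91 to 10.46 against 8.67 to 9.61. Both had a limma adjusted p of 0.0501. P2rx3 differed by 1.07 in this probe set and by 0.25 in its second brightest one (limma adjusted p = 0.25). On the lower side Smim3, a small membrane protein, was at 7.89 to 9.07 against 9.29 to 10.00 (adjusted p = 0.0501 by limma). Dusp6, a phosphatase that acts on ERK, was at 9.59 to 10.04 against 10.15 to 10.57 (adjusted p = 0.0519 by limma). Pter, Lysmd2, Tpd52, the forkhead factor Foxd1 and Dock8, an exchange factor for small GTPases, had limma adjusted p-values of 0.0568 to 0.071 and differences of -1.46 to -0.49.

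To place 5D4, genes were chosen from the 4 Mest-bright and the 5 Low lines without it, and its value was then read on a scale on which the mean of the Low lines is 0 and the mean of the Mest-bright lines is 1. Without 5D4, 17 genes differed at a limma adjusted p under 0.05 (0.104% of genes tested), 11 higher and 6 lower, and 14 of them were among the 15 above. 5D4 lay nearer to the Low lines in 14 of the 17 and nearer to the Mest-bright lines in 3, with a median position of 0.0213. It was inside the range of the Low lines in 9 genes, beyond that range on the side away from the Mest-bright lines in 3 (Adcy3, Islr and Sfrp2), between the ranges in 3 (Vstm2a, Serpina3n and Foxc2) and inside the Mest-bright range in 2 (Angptl4 and Gnpat). As 1 line it had no replicate, and none of these 17 genes passed a limma test of 5D4 against either group. The smallest limma adjusted p-values among them were 0.188 against the Low lines (Angptl4) and 0.0744 against the Mest-bright lines (Adcy3).

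Among the 14 genes in which 5D4 was nearer to the Low lines, its position was -0.45 for Sfrp2, -0.43 for Islr, -0.12 for Dpt and 0.20 for Serpina3n. Vstm2a had the highest position of the 14, 0.35, with a signal of 8.65 against 7.21 to 8.03 in the Low lines and 10.37 to 10.94 in the Mest-bright lines. Fabp4 (0.02), Grpr (0.0042), Pde2a (-0.02), Cachd1 (-0.05) and Adcy3 (-0.14) were all near the mean of the Low lines.

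The 3 genes nearer to the Mest-bright lines were Angptl4, Gnpat and Foxc2. Angptl4, a secreted inhibitor of lipoprotein lipase, was at 10.30 in 5D4, 10.23 to 10.47 in the Mest-bright lines and 9.33 to 9.68 in the Low lines, a position of 0.92. Gnpat, the peroxisomal enzyme that starts ether lipid synthesis, was at 10.90 in 5D4, 10.82 to 10.92 in the Mest-bright lines and 11.20 to 11.38 in the Low lines, a position of 0.94. Foxc2, a forkhead transcription factor, was at 10.85 in 5D4, 10.54 to 10.76 in the Mest-bright lines and 11.01 to 11.33 in the Low lines, a position of 0.62. Gnpat and Foxc2 lie on chromosome 8, where the median gene was lower in 5D4 than in the Low lines by -0.11. After the median of the 50 nearest genes was subtracted in each line, the position was 0.46 for Foxc2, now nearer to the Low lines, 0.79 for Gnpat and 0.94 for Angptl4. Of the genes that followed just outside the threshold, Pparg had a position of 0.503 at a signal of 11.75, and Prkd2 (0.21), Olr1 (0.23), Dock8 (0.39) and Foxd1 (0.34) were nearer to the Low lines. Mgst1, a microsomal glutathione transferase named after its value was seen, had a position of 0.68.

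**Figure D2:**
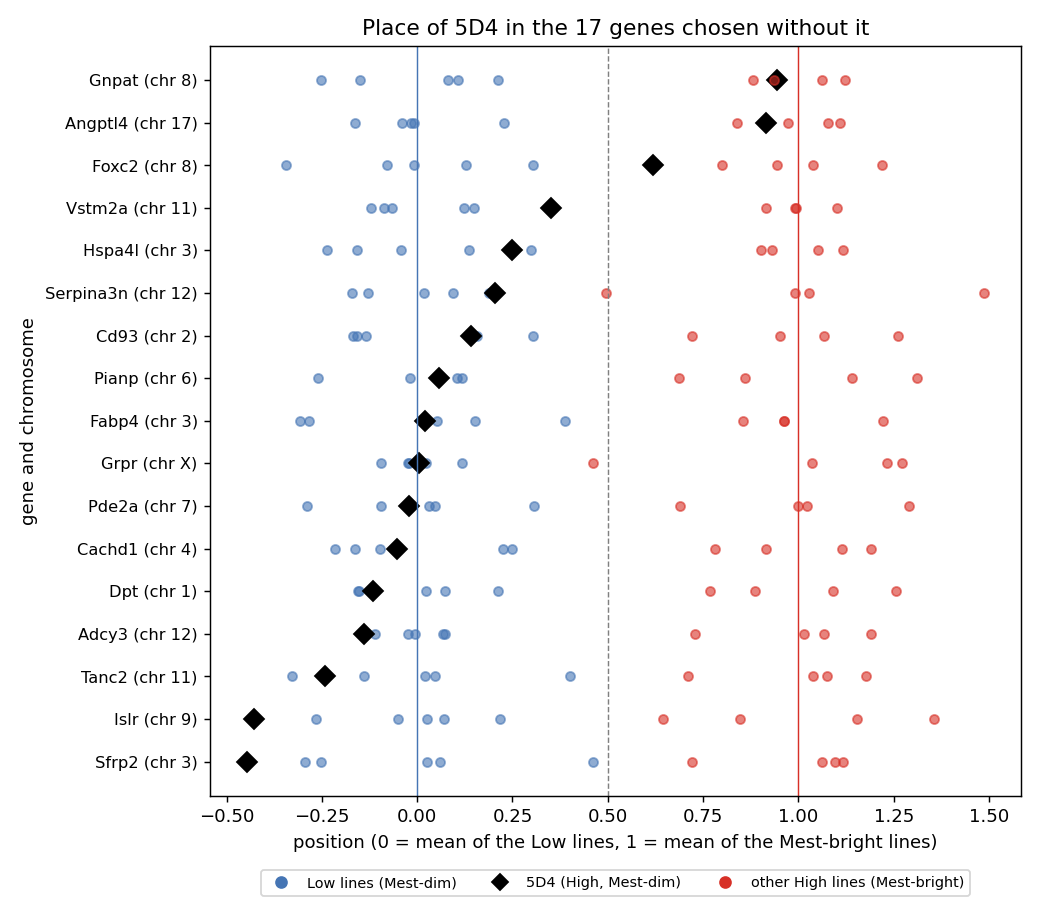
Position of each line (horizontal axis, no unit; 0 is the mean of the 5 Low lines and 1 the mean of the 4 Mest-bright lines) in the 17 genes chosen without 5D4 (vertical axis, with the chromosome), with Low lines in blue, Mest-bright lines in red and 5D4 as a black diamond. The diamond is left of the dashed line at 0.5 in 14 genes and right of it in Foxc2, Angptl4 and Gnpat; the separation of blue from red points follows from the choice of genes.

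Over the 100 genes with the smallest p between Mest-bright and Low lines, most of which did not pass the threshold, 5D4 lay nearer to the Low lines in 73 and nearer to the Mest-bright lines in 27, with a median position of 0.24. It fell inside the Low range in 46, inside the Mest-bright range in 13 and in neither range in 41. Of the 51 genes that were brighter in the Mest-bright lines it was nearer to the Low lines in 40, and of the 49 dimmer genes in 33. On chromosomes 8 and 12 the order was the other way, with 4 of 16 genes nearer to the Low lines and 12 nearer to the Mest-bright lines, against 69 and 15 of the 84 genes elsewhere. These chromosomes were singled out after their values were seen. With the median of neighbouring genes subtracted the counts were 7 and 9 on these chromosomes, 64 and 20 elsewhere, and 71 and 29 over all 100 genes.

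Each other line was then held out in the same way, with genes chosen by the labels of the lines that remained, so that 5D4 counted as High in those cases. The number of 100 genes that put the line nearer to its own class was 79 for 3F4, 77 for 4D2, 61 for 4E3 and 65 for 5C4. For the Low lines it was 66 for 1E7, 41 for 2D7, 69 for 2F1, 79 for 4D11 and 61 for 4H4. 5D4 had the lowest number, 27, and 2D7 was the other line with fewer than 50. Over all genes tested the line nearest to 5D4 was 4H4, a Low line, at a Euclidean distance of 27.8 on the log2 scale. The next was 4E3, a Mest-bright line, at 29.9, and the farthest was 5C4, also Mest-bright, at 43.7, so the distance over all genes did not order the lines by group.

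**Figure D3:**
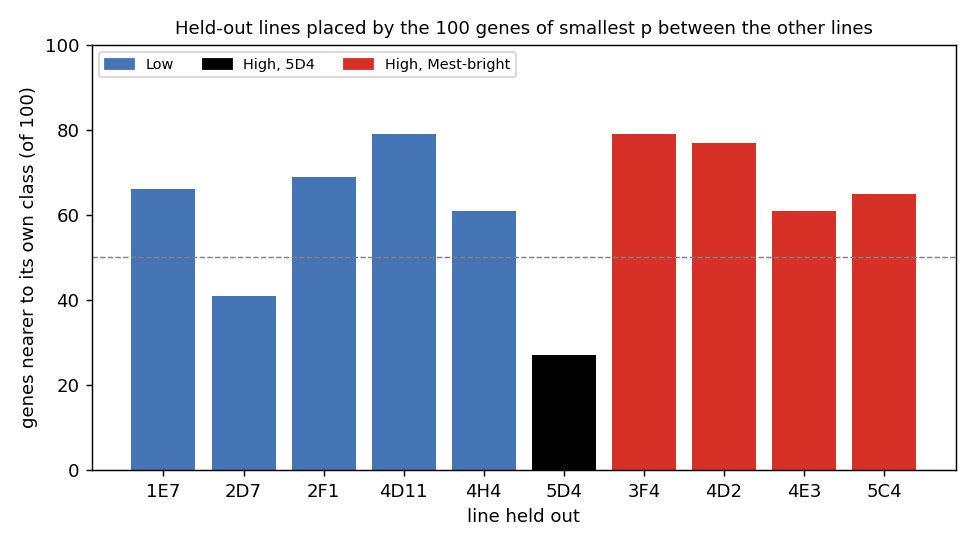
Number of genes, of 100, that put a held-out line nearer to the mean of its own labelled class (vertical axis) for each clone (horizontal axis), with Low lines in blue, 5D4 in black and Mest-bright lines in red, and a dashed line at 50. 5D4 at 27 and 2D7 at 41 are the bars below the line.

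None of the tested genes beside Mest on chromosome 6 separated the groups as Mest did. Cpa4, a carboxypeptidase gene, was at 6.85 to 7.14 in the Mest-bright lines and 6.59 to 7.14 in the Mest-dim lines, and Copg2, a coatomer subunit, at 11.59 to 11.77 and 11.53 to 11.78. Klf14, an imprinted transcription factor, was at 8.99 to 9.18 and 8.92 to 9.15, and Cep41, a centrosomal protein, at 9.39 to 9.82 and 9.22 to 9.95. Cpa1 differed by 0.30 with a limma adjusted p of 0.357. In each of these the groups overlapped. Cpa4, Cpa1 and Mir29a were mostly below the array medians, so an overlap says less for them.

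Medians over the genes of a chromosome are given as a description, since the lines of the groups overlapped on each chromosome named here. On chromosome 6 the median difference was 0.098, against 0.026 over all genes. At an unadjusted limma p under 0.05 the counts there were 133 higher and 11 lower of 828 genes, beside 889 higher and 793 lower of all 16410. The median deviation of a line from the mean of all lines on chromosome 6 was 0.007 to 0.093 in the Mest-bright lines and -0.139 (2D7) to 0.027 (4D11) in the Mest-dim lines. Chromosome 5 had a median of 0.068 with 104 higher and 19 lower of 1000, and chromosome 12 a median of -0.088 with 13 higher and 116 lower of 550. On chromosome 12 the Mest-bright lines lay at -0.053 to -0.021, with 2D7 (-0.049) inside that range and 5D4 (-0.07) below it, while the other Mest-dim lines lay at 0.038 to 0.085. In 5D4 the median difference from the Low lines was -0.024 on chromosome 6 and -0.032 on chromosome 5, where the Mest-bright lines had 0.092 and 0.062. On chromosome 12 both were at -0.11, and on chromosome 8 5D4 was at -0.11 and the Mest-bright lines at -0.063. Copy number was not measured, and its part in these medians was not tested. With the neighbouring genes' median subtracted, 16 genes passed and 13 of the 15 were among them, without Pianp on chromosome 6 and Prkd2 on chromosome 7.

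**Figure D4:**
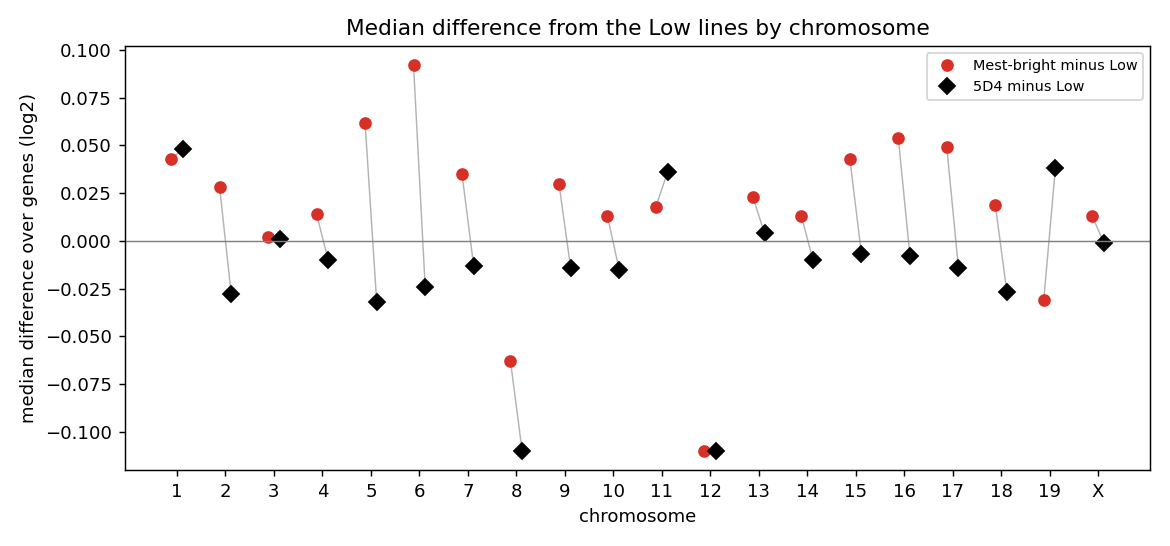
Median difference from the 5 Low lines over the tested genes of each chromosome (vertical axis, log2; horizontal axis, chromosome) for the 4 Mest-bright lines (red points) and for 5D4 (black diamonds), joined by a grey line. The points part most on chromosomes 6 (0.092 and -0.024) and 5 (0.062 and -0.032) and coincide on chromosome 12 at -0.11.

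The lists of the adipocyte programme are set beside all genes tested, of which 0.0914% passed and 10.2% had an unadjusted limma p under 0.05. Of 30 tested lipid storage and mature adipocyte genes 1 was higher (Fabp4, 3.33%), 8 had an unadjusted limma p under 0.05 (26.7%), and the median difference was 0.079, beside 0.026 over all genes. Of 27 adipogenic transcription factors 0 passed and 5 higher and 0 lower had an unadjusted limma p under 0.05 (18.5%), with a median of 0.085. Cebpa was at 8.06 to 8.65 in the Mest-bright and 7.90 to 8.54 in the Mest-dim lines, and Lpl, lipoprotein lipase, at 11.45 to 11.92 and 11.04 to 11.64, both overlapping. Of 28 anti-adipogenic factors 0 passed (unadjusted 1 higher and 2 lower by limma, 10.7%). Of 29 progenitor and stromal markers 1 was higher, Vstm2a (3.45%, and 10.3% unadjusted by limma). The lists were chosen with earlier results of these data known, so the share with Vstm2a is not independent support.

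Among 28 small leucine-rich proteoglycans, dermatopontin and partners 1 was higher (Dpt, 3.57% beside 0.0914% of all genes). Unadjusted, 6 were higher and 0 lower by limma (21.4%). Of the differences 22 were above 0 and 6 below, with a median of 0.152. The list is named for dermatopontin and was chosen with earlier results of these data known, so the share with Dpt is not independent support. Among 33 collagens 0 passed (unadjusted 4 higher and 0 lower by limma, 12.1% beside 10.2% of all genes), 30 differences were above 0, and the median was 0.138, or 0.059 without 5C4. Among 38 matrix proteases and their inhibitors 0 passed (unadjusted 4 higher and 1 lower by limma, 13.2%) and the median was 0.048. Among 34 contractile genes 0 passed (unadjusted 1 higher and 3 lower by limma, 11.8%), 27 differences were below 0 and the median was -0.073. Tagln, an actin-binding protein of smooth muscle, had the smallest p of these, at 10.38 to 11.18 in the Mest-bright lines and 11.27 to 11.75 in the Mest-dim lines, with a limma adjusted p of 0.0806. Of 52 Wnt genes 1 was higher, Sfrp2 (1.92% beside 0.0914% of all genes). Of these 52, 7 higher and 4 lower had an unadjusted limma p under 0.05 (21.2%). Of 28 heat shock and unfolded protein genes 1 was lower, Hspa4l (3.57%), and unadjusted 0 were higher and 2 lower by limma (7.14%). Lists of other cell types, mostly near or below the array median, also had medians above that of all genes, 0.122 for macrophage and leukocyte markers and 0.109 for epithelial markers. Without 5C4 the macrophage list's median was 0.052. The part of such low signals in the matrix medians was not tested.

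Among 44 imprinted genes other than Mest 0 passed, and the median was 0.057. At an unadjusted limma p under 0.05 there were 5 higher and 3 lower (18.2% beside 10.2% of all genes). Slc22a2, an organic cation transporter, had the smallest p, at 7.57 to 7.79 in the Mest-bright lines and 7.13 to 7.44 in the Mest-dim lines, with a limma adjusted p of 0.0643. Grb10, an adaptor of the insulin receptor, followed another split. It was at 12.29 in 3F4, 12.18 in 4D2, 11.79 in 4E3 and 9.19 in 5C4, and at 12.19 in 1E7, 6.75 in 2D7, 12.08 in 2F1, 12.15 in 4D11, 12.28 in 4H4 and 9.53 in 5D4. The dimmer values thus fell in 1 Mest-bright and 2 Mest-dim lines. Igf2 and Cdkn1c had overlapping groups, and Dlk1 was near its level of 13.8 in both.

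5D4 also had genes of its own, by a limma fit with 3 groups in which this single line is assumed to vary like the others. Against the Low lines 5 genes passed (0.0305%) and against the Mest-bright lines 4 (0.0244%), and all of them were brighter in 5D4. Ildr2, an immunoglobulin-like receptor, was at 9.93 in 5D4, 7.35 to 7.505 in the Low lines and 7.45 to 7.74 in the Mest-bright lines, with differences of 2.50 (limma adjusted p = 5.91e-06) and 2.38 (1.28e-05). Cd200, a surface glycoprotein that signals to myeloid cells, was at 8.41 against 6.41 to 6.75 and 6.35 to 6.72, with limma adjusted p-values of 0.000982 and 0.00107. Phf11d was at 8.01 against 6.30 to 6.76 and 6.56 to 6.78 (limma adjusted p = 0.00379 and 0.018). Rtp4, an interferon-inducible chaperone of receptors, was at 9.32 against 6.90 to 7.78 and 7.22 to 7.55 (limma adjusted p = 0.032 and 0.028). Rbfox1, a splicing factor, passed against the Low lines, at 7.84 against 6.90 to 7.08 (limma adjusted p = 0.0175).

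Interferon response genes were brightest in 5D4. Of 27 tested members 5D4 was the highest of the 10 lines in 21 (77.8%), beside 1204 of 16410 genes tested (7.34%). The median difference of 5D4 from the Low lines was 0.676 over the list, and that of the Mest-bright lines was -0.062. Ifit1, an antiviral RNA-binding protein, was at 9.42 in 5D4, 8.03 to 8.20 in the Low lines and 6.87 to 8.30 in the Mest-bright lines. Irf7, a transcription factor of the response, was at 9.09 in 5D4 and at most 8.37 in the other lines, and Usp18, a protease that limits the response, at 9.84 and at most 8.54. Both of these next values belonged to 2D7, a Low line. In many of the 21 members 2D7 stood second to 5D4, for example at 9.64 against 10.28 for Oasl2 and 7.107 against 7.111 for Ifih1. This did not hold for all, since the next line for Ifit1 was 4E3 at 8.30. The brightness was thus graded and not confined to 5D4. None of the 27 passed between the Mest groups (unadjusted 1 higher and 3 lower by limma, 14.8% beside 10.2% of all genes). The list's median there was -0.188 with 5D4 among the Mest-dim lines, -0.062 without 5D4, and 0.092 by label. It was 0.012 in the 4 clones named with a leading 4. The look at 5D4 and 2D7 in this list, and the choice of Irf7, Usp18, Oasl2 and Ifih1, followed after values were seen.

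**Figure D5:**
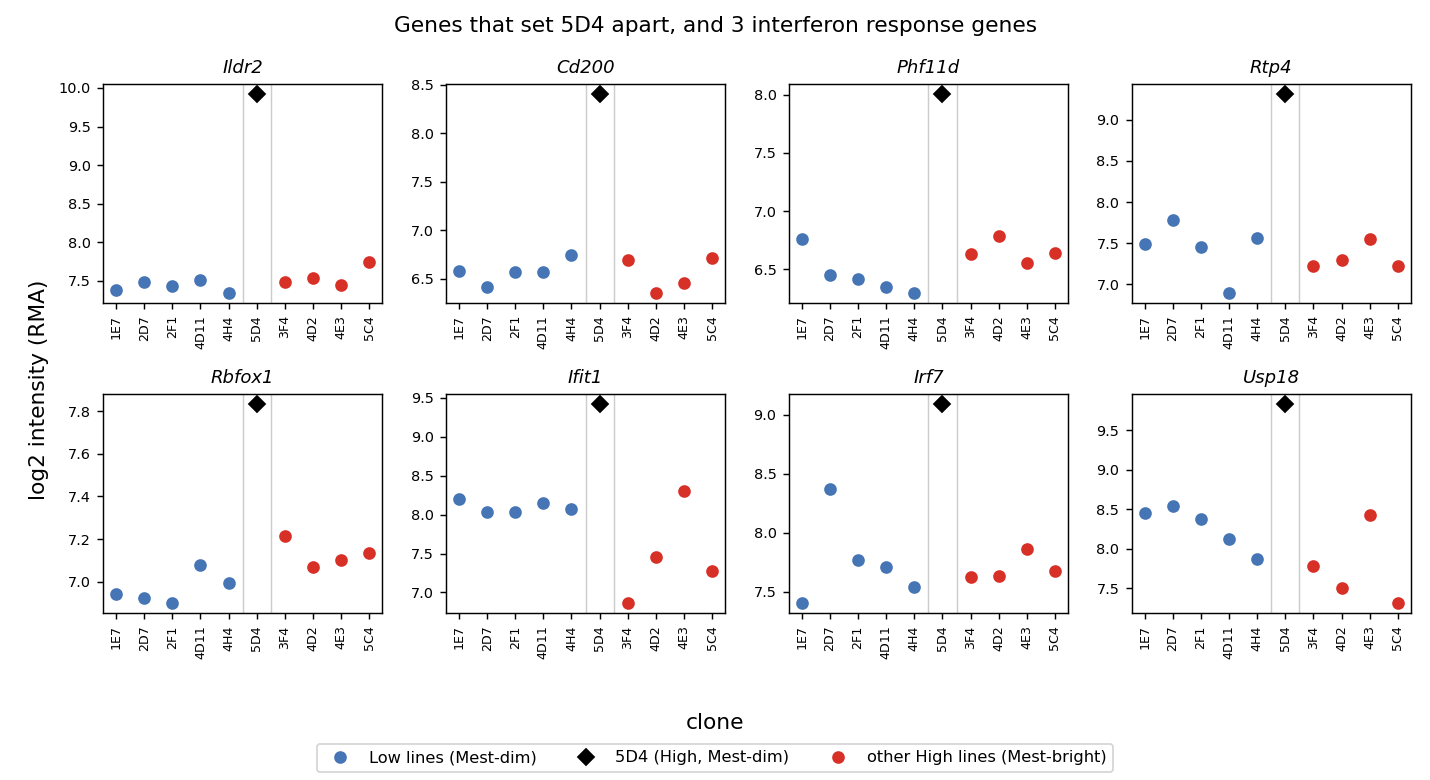
Log2 RMA intensity (vertical axes, which differ between panels and do not start at 0) of the 5 genes that passed in 5D4 and of 3 interferon response genes in each clone (horizontal axes), with Low lines in blue, 5D4 as a black diamond and Mest-bright lines in red; each point is 1 array. 5D4 is the highest point in all 8 panels, for example 9.93 against at most 7.74 for Ildr2, while the blue and red ranges overlap in each.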

How the data were processed

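Biotin-labelled cDNA from the total RNA of 10 clonal lines was measured on Affymetrix whole-transcript arrays, 1 per line. The deposited values are log2 intensities, and RMA is named per the submitters' processing notes. Its settings, its version and the array's genome build were not given in the sources used here. Since RMA gives all arrays nearly the same distribution, shifts common to most genes are lost. Of 34760 probe sets, 21640 carried 1 gene symbol in the platform annotation, 1321 several, and 11799 were unnamed here. The brightest probe set stood for each of 19937 genes. A gene was tested when it was above the 25th percentile of the array on 4 or more of the 10 arrays, which left 16410 and set aside 3526, Mest not counted.

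Groups were compared with limma 3.58.1 (lmFit, eBayes, two-sided) in R 4.3.3, and p-values were adjusted over all genes tested by Benjamini and Hochberg's method. The test was checked on simulated data in which genes varied independently, without shifts shared along a chromosome. There it recovered 30% of genes changed 1.25-fold and 98% of genes changed 2.0-fold, and 5 of 162 calls were false. The simulation held 50 changed genes at each fold, and with 162 calls the adjustment is milder than with the 15 calls made here. These shares therefore do not give the share of such changes found in the real lines. Smim3 (2.40-fold lower) and Lysmd2 (2.75-fold lower), for example, did not pass. Chromosomes and sequences came from RefSeq (GRCm38.p6), where 21553 probe sets had their gene. Named genes were the 12 of smallest p in each direction, up to 10 per side in the placing of 5D4, those called in 5D4, leading list members and a set panel. The lines, lists and tests were chosen with earlier results of these data known, so Vstm2a and Dpt are not independent support. Alternatives covered the filter, probe sets, normalization, variance model, weights, minimum fold, clone-name digit, neighbouring genes and each line left out. Arrays have no counting depth, and the number of lines limits the precision.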

Additional observations from a re-analysis of the deposited data

Results flagged for a closer look

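In 17 of 162 sets of values (81 genes, each in the Mest-bright and the Mest-dim lines) 1 line stood far from the others of its group by Dixon's criterion. Chance gives about 1 in 20 sets, or 8.1 here.

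5D4 was the highest of the Mest-dim lines in 7 of these. It was at 10.2991 for Angptl4 (others at most 9.68), 9.423 for Ifit1 (8.20), 9.9267 for Ildr2 (7.505), 8.4072 for Cd200 (6.75), 8.0083 for Phf11d (6.76), 7.8365 for Rbfox1 (7.08) and 9.3172 for Rtp4 (7.78). Several of these genes were named because 5D4 differed in them.

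4E3 was the lowest Mest-bright line for Sfrp2 at 11.7838 (others at least 12.17), Adamts9 at 9.1098 (9.65) and Cebpd at 8.2604 (8.77), and the highest for Lysmd2 at 7.5686 (others at most 7.11). 4D2 was the lowest for Phex at 6.1162 (others at least 6.43), and 5C4 for Grb10 at 9.1888 (11.79). Among the Mest-dim lines 4H4 was the lowest for Pianp at 7.5436 (others at least 7.69), 2F1 for Pter at 9.8012 (10.05), 4D11 for Cebpb at 9.1421 (9.30) and 2D7 for Cav1 at 13.1239 (13.27).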

How the results depend on the processing

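The count of 15 genes between Mest-bright and Mest-dim lines was 7 with a minimum fold of 1.2, 6 with a block for the clone name's first digit, 6 in the clones named with a leading 4 (chosen after seeing the data) and 1 by label. It ran from 7 to 28 with each line left out in turn, and from 14 to 22 under the filters, probe set choice, normalizations, variance model, array weights and subtraction of neighbouring genes (the last chosen after seeing the data). The cause was not tested. The count of 1 by label was 2 with arrays centred, 3 with array weights and 0 with the digit block. In that block fit by label only the clones named with a leading 4 bear on the difference. The count by label ran from 1 to 17 with each line left out, 17 without 5D4 and 2 without 2F1 or 4H4. The share of chosen genes that placed 5D4 nearer to the Low lines was 63.6 to 95.7% over its alternatives, lowest without 4H4. For 64 named genes, 1279 values under the alternatives kept their sign and side of the threshold, 81 lost a call and 40 gained one. That 0 of these values changed sign follows from the sorting, since genes whose sign turned were set apart. Another 15 named genes, Grb10, Dcn and Copg2 among them, are given by level alone because the sign of their difference turned under at least 1 alternative, in 49 of 322 values. No paired analysis was possible because the labels give no replicate numbers that groups share. Signals near background, as for the miR-335 precursor, limit what could be compared.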

Other observations

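Pde3b, a cyclic AMP phosphodiesterase of the insulin pathway, was spread among the Mest-dim lines and dim in every Mest-bright line. It was at 6.12 in 3F4, 6.26 in 4D2, 6.48 in 4E3 and 6.003 in 5C4, and at 7.76 in 1E7, 5.86 in 2D7, 6.89 in 2F1, 8.96 in 4D11, 9.38 in 4H4 and 9.30 in 5D4. The groups overlapped through 2D7, and the difference of -1.81 had a limma adjusted p of 0.371. With a block for the clone name's first digit the limma adjusted p was 0.0205. In that fit 1E7, 2D7, 2F1 and 3F4 do not bear on the difference, since no line of the other group shares their digit. Peg3, an imprinted zinc finger gene, was at 10.52 in 2D7 and between 8.30 and 9.31 in the other 9 lines. Both genes were named from lists and a panel, and these values were singled out after they were seen.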
